A study of Mus musculus with 9 samples.

Results

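The transcripts of 10 genes of the spindle checkpoint and its kinases were followed in mouse round spermatids: Mad1l1, Mad2l1, Bub1, Bub1b, Bub3, Ttk, Aurka, Aurkc, Plk1 and Incenp. They were taken by their symbols from a table of 55414 genes, and each symbol matched 1 row, so the set is 10 genes of 55414. RNA was sequenced from 9 libraries, 3 for each of 3 groups. All cells were labelled WT round spermatids from testis. The study's methods give a medium with 5 mM lactate, 5 mM pyruvate and 5% dialyzed serum for earlier germ cell stages. They name no medium for round spermatids. The cells were incubated for 24 h with 0.15% DMSO. The vehicle group (libraries 1 to 3) received nothing else. The oxamate group (libraries 4 to 6) received 24 mM oxamate, an inhibitor of lactate dehydrogenase, and the combined group (libraries 7 to 9) received 24 mM oxamate with 0.3 mM octyl-L2HG, an ester of L-2-hydroxyglutarate (L-2HG) that enters cells. By the study's methods the cells were sorted from Stra8-Tom mice, in which a Cre driven by the Stra8 promoter switches on tdTomato in the germ line. The sort separated germ cell stages by the level of fluorescence and by cell size, and the study describes its sorted round spermatids as haploid by DNA content. The methods name prepubertal and adult mice and do not say which gave these libraries, and the study describes triplicate incubations without saying whether these used separate mice. The p-values below therefore measure the spread between these libraries, which may not include that between mice.

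The spindle checkpoint delays anaphase until each chromosome is held by spindle fibres. At a free kinetochore the kinase Ttk (MPS1) sets up docking sites for Bub3 with Bub1 and Bub1b (BUBR1), Mad1l1 recruits Mad2l1, and a complex of Mad2l1, Bub1b, Bub3 and Cdc20 blocks the anaphase-promoting complex, the ubiquitin ligase that triggers separation. Aurora B or, in germ cells, Aurora C works with the scaffold Incenp to correct wrong attachments, while Aurora A and Plk1 build the spindle poles. Round spermatids are the haploid cells that follow the meiotic divisions, and they no longer divide.

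The libraries held 32339533 to 39888396 counted reads, and all 10 genes passed the filter of at least 10 counts summed over the 9 libraries, which left 25128 genes for testing. Values below are normalized counts, which the authors made by dividing the counted reads by 1 size factor for each library. All 12 round spermatid marker genes listed for a check of the cells were detected, with a summed level of 93273 to 107482 normalized counts. The somatic lists summed to 31.8 to 51.3 for Sertoli cells, 19.7 to 40.3 for Leydig cells, 39.2 to 52.6 for peritubular cells, 112 to 162 for macrophages and 299 to 483 for endothelial cells, and the list for spermatogonia to 253 to 299. No gene of these lists was at 0 in every library. Pairs of libraries in a group differed by more than counting noise, the chi-square divided by its degrees of freedom being 1.98 to 20.7. Oxamate library 4 stood apart: its median absolute log2 difference over 10715 genes was 0.17 from library 5 and 0.19 from library 6, against 0.06 between libraries 5 and 6. Vehicle library 1 also differed more from libraries 2 and 3 (0.12 from each) than these did from each other (0.09). Library 4 stood farthest from its group, and the calls, medians and intervals of the 10 genes are therefore given with and without it.

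The 10 genes differed widely in transcript level and little between groups. To compare genes, the normalized count was divided by the length of the longest transcript in kb. Aurka and Plk1 stood at the top. Aurka had 5366 normalized counts per kb with vehicle, above 97.7% of the tested genes, and Plk1 had 4517, above 97.1%. Together they held 63.9% of the summed level per kb of the 10 genes. Their vehicle ranges overlapped (4884 to 5887 for Aurka, 4279 to 4951 for Plk1), although Aurka was the higher in all 9 libraries.

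A middle group followed with Bub1 at 1575, Incenp at 1274, Ttk at 1157 and Aurkc at 690 normalized counts per kb with vehicle. Bub1 lay above Incenp and Ttk above Aurkc with no overlap of the vehicle libraries. Incenp (1227 to 1318) and Ttk (1099 to 1241) overlapped, and Incenp was the higher in 8 of 9 libraries. Bub1b had 467 and Bub3 305 per kb, without overlap. The lowest were the MAD genes, with Mad1l1 at 100.4 and Mad2l1 at 6.95 per kb, above 66.1% and 33.3% of the tested genes. Mad1l1 exceeded Mad2l1 11.2 to 25.4 times per kb in every library, and the ratio of the vehicle means of Aurka and Mad2l1 was 773. The order depends on the length used: with the median length of the protein-coding transcripts in place of the longest transcript, Plk1 (7144), Incenp (6896) and Aurka (5366) led per kb and Bub3 (825) passed Bub1b (467), while Mad1l1 and Mad2l1 stayed lowest. That median was only 637 bases for Incenp, against 3449 for its longest transcript, and 1390.5 against 2199 for Plk1. The place of Incenp by this length therefore rests on short annotated transcripts. The ratio of vehicle means then fell to 8.88 between Mad1l1 and Mad2l1, from 14.5, and to 474 between Aurka and Mad2l1.

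**Figure D1:**
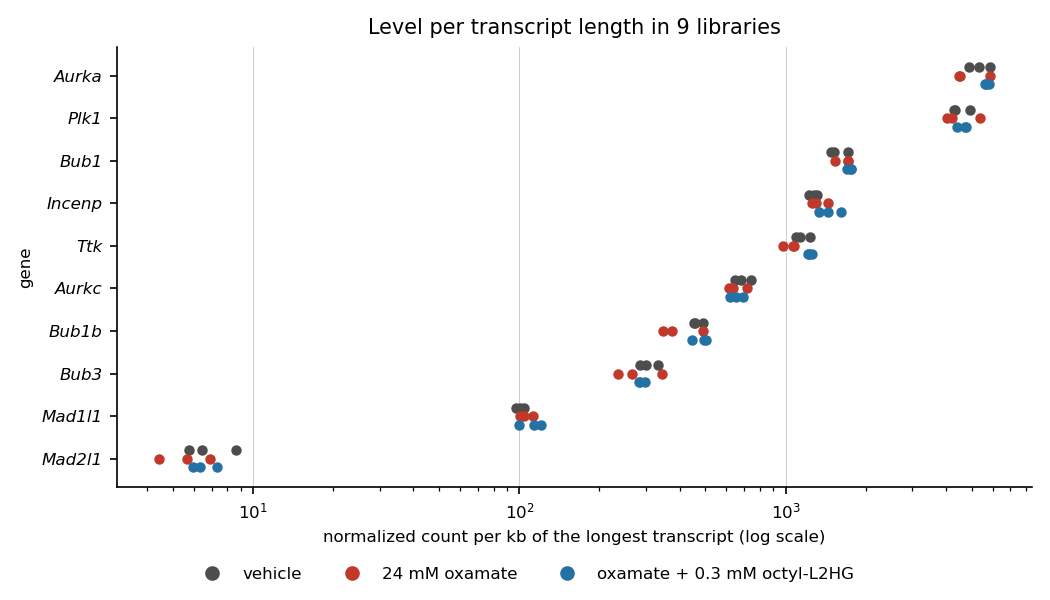
Normalized count per kb of the longest transcript, on a log scale, for the 10 genes (rows, ordered by the vehicle mean). Each point is 1 library, coloured by group. Aurka and Plk1 lie near 5000 and Mad2l1 near 7, and the spread between groups is small beside the spread between genes.

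Among the Aurora kinases, the level per kb of Aurka was 7.14 to 9.17 times that of Aurkc over the 9 libraries, and that of Aurkc was 4.70 to 6.45 times that of Aurkb, the somatic partner of Incenp. Aurkb is not among the 10 genes and is given for this ratio. Its normalized counts were 225, 210 and 207 with vehicle, 280, 224 and 201 with oxamate and 249, 243 and 257 with both compounds. None of its differences was called (adjusted p = 0.582, 0.820 and 0.248 in the order of the 3 comparisons below, edgeR). Incenp exceeded Aurkc per kb by 1.71 to 2.34 times, and the ratio of their vehicle means was 1.85. With the median length of the protein-coding transcripts, 637 bases for Incenp, that ratio was 8.24.

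Promoter sequences were looked up for the 10 genes. RefSeq windows on GRCm38.p6, from 250 bases before to 50 bases after a start site, were found for 9 genes and not for Incenp. The letters TTTGAA, or TTCAAA on the other strand, the core of the element known as CHR in promoters of cell cycle genes, stood in a window of 5 of these 9 genes, against 20.2% of the 27025 genes in the table. The letters CCAAT or ATTGG stood in 7 of 9, against 41.1% of genes. A match describes the letters and not binding of a factor. The 5 promoters with the CHR letters, those of Aurka, Plk1, Bub1b, Bub3 and Ttk, are shown so that the place of the match can be compared. Their genes did not share 1 pattern between the oxamate libraries, since Ttk was lowest in library 4 and the other 4 were highest. Mad1l1 and Aurkc, without the letters in their windows, were also highest in library 4, as was Incenp, which has no window. Capitals mark TTTGAA or TTCAAA, and each run is written along the strand of the gene. Aurka is on the minus strand of chr2:172370521-172370820, with the first capital at position 33, counted from 1 at the start site. Plk1 is on the plus strand of chr7:122159185-122159484 (position 31), Bub1b on the plus strand of chr2:118597961-118598260 (position 41), Bub3 on the plus strand of chr7:131560120-131560419 (first capital 43 bases before the start site) and Ttk on the plus strand of chr9:83834439-83834738 (position 8). Bub3 has a further, overlapping window with the same match, which is not shown.
Aurka: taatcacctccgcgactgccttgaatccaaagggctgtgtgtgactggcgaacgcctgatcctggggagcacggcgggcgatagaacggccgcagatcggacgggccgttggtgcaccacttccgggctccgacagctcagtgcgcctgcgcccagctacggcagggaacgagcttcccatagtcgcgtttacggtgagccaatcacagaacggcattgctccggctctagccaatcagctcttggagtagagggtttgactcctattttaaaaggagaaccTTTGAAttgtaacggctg
Plk1: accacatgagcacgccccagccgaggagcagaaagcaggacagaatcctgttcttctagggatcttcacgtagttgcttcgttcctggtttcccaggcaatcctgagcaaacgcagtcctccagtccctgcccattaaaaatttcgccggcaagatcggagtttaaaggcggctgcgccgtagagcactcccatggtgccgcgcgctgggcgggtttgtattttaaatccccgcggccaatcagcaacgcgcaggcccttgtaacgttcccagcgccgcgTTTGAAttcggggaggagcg
Bub1b: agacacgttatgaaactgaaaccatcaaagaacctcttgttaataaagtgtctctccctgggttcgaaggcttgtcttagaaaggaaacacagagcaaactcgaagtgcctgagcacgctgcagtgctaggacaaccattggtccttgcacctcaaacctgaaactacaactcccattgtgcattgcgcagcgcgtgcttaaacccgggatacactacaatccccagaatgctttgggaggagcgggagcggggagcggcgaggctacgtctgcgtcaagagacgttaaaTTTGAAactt
Bub3: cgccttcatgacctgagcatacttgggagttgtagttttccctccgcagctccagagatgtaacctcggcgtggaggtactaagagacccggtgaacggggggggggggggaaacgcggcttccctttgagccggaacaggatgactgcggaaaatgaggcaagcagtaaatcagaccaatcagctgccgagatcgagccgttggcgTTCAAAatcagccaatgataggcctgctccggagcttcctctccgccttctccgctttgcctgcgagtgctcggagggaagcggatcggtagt
Ttk: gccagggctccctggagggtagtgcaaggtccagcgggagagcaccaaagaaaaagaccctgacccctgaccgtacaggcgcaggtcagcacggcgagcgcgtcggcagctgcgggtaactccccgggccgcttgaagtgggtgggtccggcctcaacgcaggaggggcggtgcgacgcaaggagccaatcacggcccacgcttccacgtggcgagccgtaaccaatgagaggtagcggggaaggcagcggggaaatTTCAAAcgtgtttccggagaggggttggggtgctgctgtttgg
The CCAAT letters lay before the start site in each of these 5 windows, the nearest 14 bases before it in Plk1, 19 in Aurka, 28 in Ttk, 32 in Bub3 and 113 in Bub1b. Bub1 and Aurkc had CCAAT letters without the CHR core, and the windows of Mad1l1 and Mad2l1, the genes lowest per kb, held neither.

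The first comparison asked what oxamate changed against vehicle. None of the 10 genes was called at an adjusted p-value under 0.05 (edgeR's quasi-likelihood fit over all tested genes, adjusted by Benjamini-Hochberg), where 3.97% of all tested genes were called as higher and 1.22% as lower. At an unadjusted p under 0.05, 2 of the 10 genes passed, Bub1b (0.0492) and Ttk (0.0405), against 17.3% of all tested genes. The median log2 fold change of the 10 genes was -0.09, against -0.01 over all tested genes, with 4 above 0 and 6 below. Without oxamate library 4 the median was -0.13, with 3 above 0 and 7 below. For the 9 genes other than Mad2l1, the 95% confidence intervals lay between 0.753-fold and 1.21-fold, and without library 4 between 0.699-fold, in Bub1b, and 1.19-fold. For Mad2l1 the interval was 0.614-fold to 1.09-fold, and 0.682-fold to 1.22-fold without library 4.

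The second comparison asked what octyl-L2HG changed in cells given oxamate. Ttk alone was called, as higher with both compounds than with oxamate (1 of 10, where 3.18% of all tested genes were called as higher and 8.06% as lower). At an unadjusted p under 0.05, Bub1b (0.0345) passed beside Ttk (0.00445), 2 of 10 against 23.6% of all tested genes. The median log2 fold change was 0.08 for the 10 genes and -0.04 for all tested genes, and 8 of the 10 lay above 0. Without library 4 the median was 0.16 with 9 of 10 above 0, and with total counts as the scaling it was 0.03 with 7 above 0. The intervals of the 9 genes other than Mad2l1 spanned 0.860-fold to 1.34-fold, and 0.915-fold to 1.45-fold, the latter in Bub1b, without library 4. For Mad2l1 the interval was 0.841-fold to 1.52-fold, and 0.755-fold to 1.37-fold without library 4. The share of higher genes among all calls in this comparison moved with the scaling, from 28.3% to 14.3% with total counts, 37.7% with DESeq2's size factors, 43.6% with DESeq2's test and 44.3% with genes of low counts kept.

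The third comparison set both compounds against vehicle. Each group enters 2 of the 3 comparisons, so the comparisons share libraries. None of the 10 genes was called, where 7.48% of all tested genes were called as higher and 10.6% as lower. At an unadjusted p under 0.05, Incenp passed (0.0250), 1 of 10 against 30.0% of all tested genes. The median log2 fold change was 0.04 for the 10 genes and -0.05 for all tested genes, and the intervals of the 9 genes other than Mad2l1 spanned 0.799-fold to 1.26-fold. With total counts as the scaling the median was -0.02, with 5 above 0 and 5 below, against 7 and 3. Without library 4 it was 0.04 and these intervals spanned 0.846-fold to 1.23-fold. That of Mad2l1 was 0.698-fold to 1.23-fold, and 0.717-fold to 1.20-fold without library 4. Among all calls 41.4% were higher, against 26.8% with total counts as the scaling, 46.9% with DESeq2's size factors, 51.7% with DESeq2's test and 52.6% with genes of low counts kept. In the test of any difference among the 3 groups none of the 10 genes was called, against 19.8% of all tested genes, and at an unadjusted p under 0.05 Ttk passed (0.0140, adjusted p = 0.0642, edgeR), 1 of 10 against 31.5%.

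**Figure D2:**
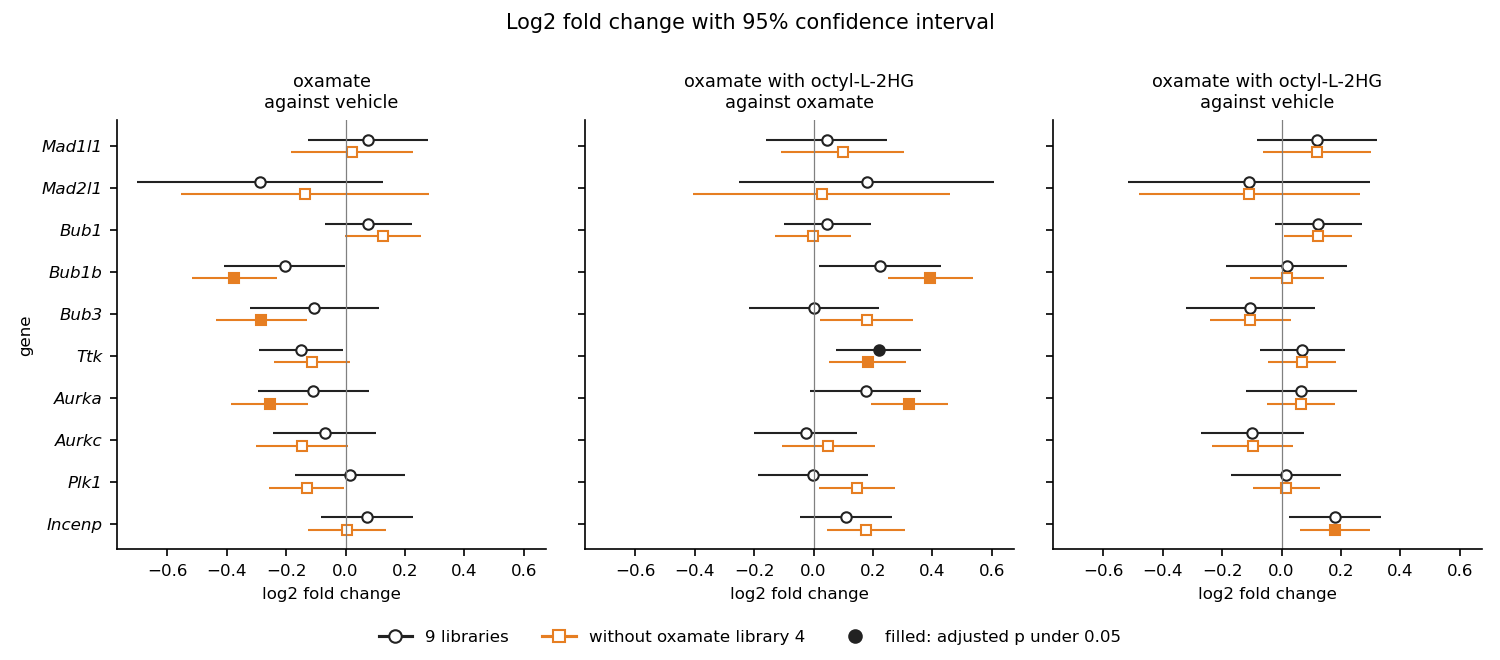
Log2 fold change (horizontal axis) with its 95% confidence interval for the 10 genes in the 3 comparisons, from the fit of all 9 libraries (circles) and without oxamate library 4 (squares). Filled symbols have an adjusted p under 0.05. With 9 libraries only Ttk is filled, in the middle panel. Without library 4, Aurka, Bub1b and Bub3 are filled below 0 on the left. Aurka, Bub1b and Ttk are then filled above 0 in the middle and Incenp above 0 on the right.

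Ttk (ENSMUSG00000038379), the kinase at the head of the checkpoint, had 3155, 3563 and 3244 normalized counts in the vehicle libraries, 2808, 3084 and 3062 with oxamate and 3521, 3479 and 3608 with both compounds. All 3 oxamate libraries lay below all 6 others. With both compounds Ttk was higher than with oxamate by 0.22 on the log2 scale (standard error 0.07, adjusted p = 0.0425, edgeR), which is 1.16-fold with an interval of 1.05 to 1.29. Against vehicle, oxamate gave -0.15 on that scale (standard error 0.07, adjusted p = 0.260, edgeR) and both compounds gave 0.07 (adjusted p = 0.556, edgeR). Groups that do not overlap were common in the table: this held for 21.3% of all tested genes between oxamate and vehicle and for 28.8% between both compounds and oxamate, and among the 10 genes for Ttk alone in each. The call was kept without any 1 of libraries 1 to 4, with log2 fold changes of 0.18 to 0.24, and was lost without any 1 of libraries 5 to 9 (0.20 to 0.24, adjusted p = 0.0685 to 0.151, edgeR) and with total counts as the scaling (0.17, adjusted p = 0.126, edgeR).

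The other kinases of the checkpoint's kinetochore platform gave no call with 9 libraries. Bub1 (ENSMUSG00000027379), whose mark on centromeric chromatin recruits shugoshin, had 5059, 5881 and 5223 normalized counts with vehicle, 5249, 5898 and 5855 with oxamate and 5811, 6053 and 6010 with both compounds. The groups overlapped in each pair. Its log2 fold changes of 0.08, 0.05 and 0.12 in the 3 comparisons each had a standard error of 0.07.

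Bub1b (ENSMUSG00000040084), the BUBR1 arm of the checkpoint complex, had 1791, 1668 and 1677 normalized counts with vehicle, 1793, 1272 and 1373 with oxamate and 1628, 1840 and 1809 with both compounds. Oxamate libraries 5 and 6 lay below all other libraries, while library 4 was within the range of the other groups. With all libraries its log2 fold change was -0.21 for oxamate (standard error 0.10, adjusted p = 0.287, edgeR) and 0.22 for both compounds against oxamate (standard error 0.10, adjusted p = 0.166).

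Bub3 (ENSMUSG00000066979), the adaptor that docks Bub1 and Bub1b at the kinetochore, had 1332, 1201 and 1137 normalized counts with vehicle, 1384, 1064 and 946 with oxamate and 1190, 1133 and 1140 with both compounds. The oxamate group held both the highest and the lowest value of the 9. Its log2 fold changes were -0.11 for oxamate (standard error 0.10) and 0.00045 for both compounds against oxamate (standard error 0.11).

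The MAD genes were the least abundant. Mad1l1 (ENSMUSG00000029554) had 275, 256 and 265 normalized counts with vehicle, 296, 265 and 274 with oxamate and 318, 299 and 263 with both compounds, overlapping in each pair of groups. Its log2 fold changes were 0.08, 0.04 and 0.12, each with a standard error of 0.10. Mad2l1 (ENSMUSG00000029910) had 43.5, 65.4 and 48.5 with vehicle, 33.3, 52.0 and 42.8 with oxamate and 55.0, 45.0 and 47.7 with both compounds. These rest on 35 to 69 reads in a library, for which counting error alone is 14.3%, and the spread of the vehicle libraries was 21.8% of their mean. Its log2 fold change for oxamate of -0.29 had a standard error of 0.20 (adjusted p = 0.504, edgeR). In the annotation Mad1l1 shares exon bases with Gm16121 on the opposite strand, and Plk1 with Gm44985, and the strand setting of the counting is not given in the sources used here.

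Of the spindle pole kinases, Aurka (ENSMUSG00000027496) had 11215, 10147 and 9305 normalized counts with vehicle, 11201, 8629 and 8511 with oxamate and 10724, 11033 and 10840 with both compounds. Oxamate libraries 5 and 6 lay below all others and library 4 beside the highest vehicle library. The log2 fold change was -0.11 for oxamate (standard error 0.09, adjusted p = 0.599, edgeR) and 0.17 for both compounds against oxamate (standard error 0.09, adjusted p = 0.251). Plk1 (ENSMUSG00000030867), which also acts at kinetochores and in cytokinesis, had 10888, 9410 and 9502 with vehicle, 11866, 9250 and 8903 with oxamate and 10454, 10428 and 9685 with both compounds. The oxamate group again held the highest and the lowest value. Its log2 fold changes lay between -0.0014 and 0.016 in the 3 comparisons, with standard errors of 0.09.

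The germ line passenger complex was represented by Aurkc and Incenp. Aurkc (ENSMUSG00000070837) had 1042, 955 and 901 normalized counts with vehicle, 1004, 889 and 856 with oxamate and 968, 914 and 870 with both compounds. The 3 groups overlapped, and its log2 fold changes were -0.07, -0.03 and -0.10 with standard errors of 0.08. Incenp (ENSMUSG00000024660) had 4400, 4233 and 4546 with vehicle, 4991, 4327 and 4490 with oxamate and 5572, 4988 and 4605 with both compounds. The 3 libraries of the combined group were all higher than the 3 vehicle libraries, as was so for 36.5% of all tested genes in 1 or the other direction. The log2 fold change against vehicle was 0.18 (standard error 0.07, adjusted p = 0.104, edgeR).

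**Figure D3:**
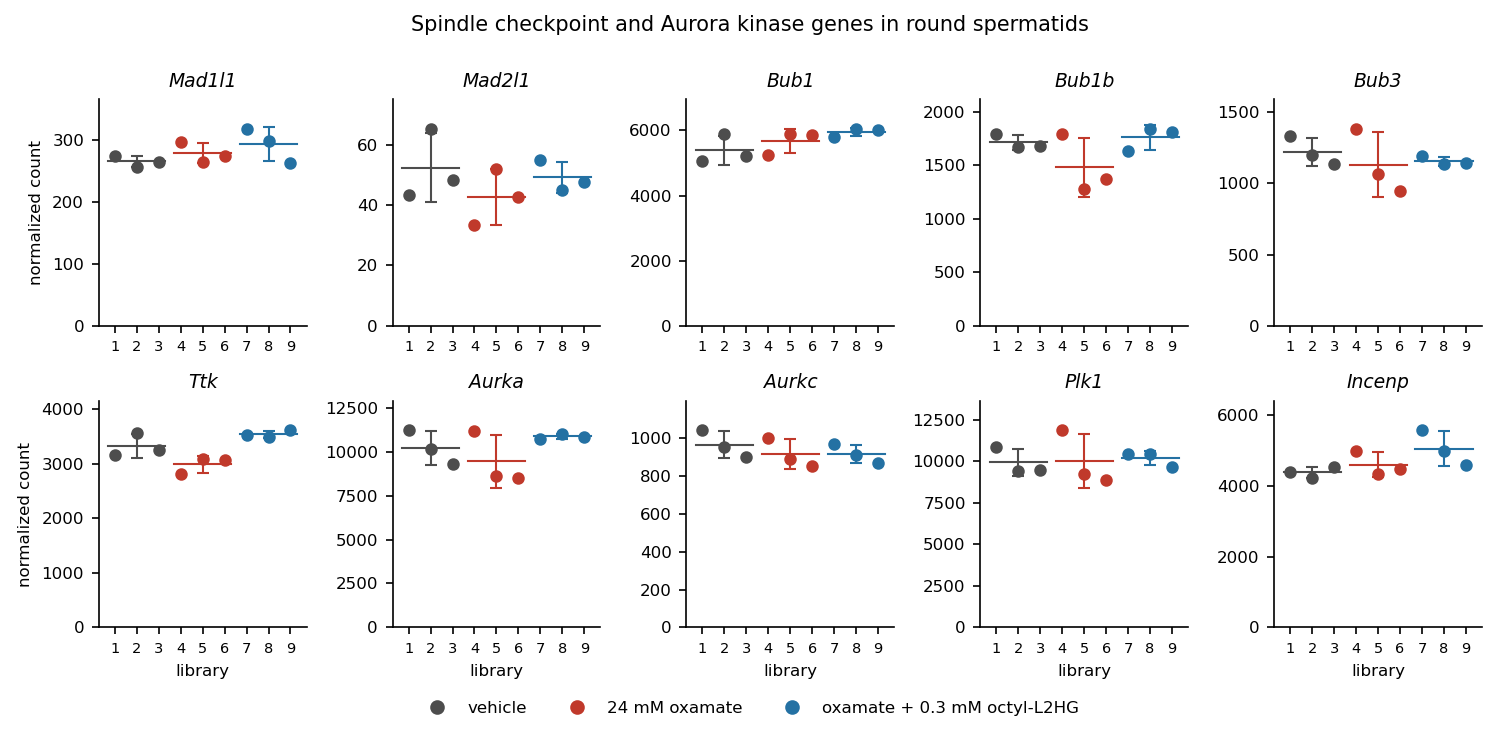
Normalized counts (vertical axes, from 0) of the 10 genes in libraries 1 to 9, with 1 panel for each gene. Lines and bars give the mean and SD of the 3 libraries of a group. In Aurka, Bub1b, Bub3 and Plk1, oxamate library 4 lies above libraries 5 and 6, and in Ttk the 3 oxamate libraries lie below the other 6.

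Oxamate library 4 decided several of these values. Within the oxamate group it was the highest in 7 of the 10 genes (Mad1l1, Bub1b, Bub3, Aurka, Aurkc, Plk1 and Incenp) and the lowest in the other 3 (Mad2l1, Bub1 and Ttk). It exceeded the mean of libraries 5 and 6 by 37.8% in Bub3, 35.6% in Bub1b, 30.7% in both Plk1 and Aurka, 15.0% in Aurkc, 13.2% in Incenp and 9.99% in Mad1l1. Without it, 3 of the 10 genes were called as lower with oxamate than with vehicle, where 2.86% of all tested genes were. These were Bub1b (log2 fold change -0.37, standard error 0.07, adjusted p = 0.000333), Bub3 (-0.28, standard error 0.08, adjusted p = 0.0125) and Aurka (-0.26, standard error 0.06, adjusted p = 0.00685), all by edgeR's quasi-likelihood test. Plk1 had -0.13 (adjusted p = 0.210) and Aurkc -0.15 (adjusted p = 0.258).

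Vehicle library 1 was placed in its group much as library 4 was in the oxamate group. It was the highest in 6 of the 10 genes (Mad1l1, Bub1b, Bub3, Aurka, Aurkc and Plk1), the lowest in Mad2l1, Bub1 and Ttk and between the others in Incenp. Without library 1 and with library 4 kept, none of Bub1b (log2 fold change -0.17, adjusted p = 0.485), Bub3 (-0.04, adjusted p = 0.915) and Aurka (-0.04, adjusted p = 0.906) was called by edgeR for oxamate against vehicle. With both libraries left out, a fit added after seeing the data, the same 3 were called as lower, at -0.34 for Bub1b (adjusted p = 0.000355, edgeR), -0.22 for Bub3 (adjusted p = 0.0392) and -0.18 for Aurka (adjusted p = 0.0223). In that fit 6.14% of all tested genes were called as higher with oxamate and 2.46% as lower. Between both compounds and oxamate 6 of the 10 were called as higher (Aurka, Bub1b, Bub3, Incenp, Plk1 and Ttk), where 10.0% of all tested genes were higher and 13.9% lower. Between both compounds and vehicle 2 were called as higher (Aurka and Incenp), where 12.2% were higher and 14.0% lower, and for any difference 6 were called, against 32.0%. Leaving out the libraries farthest from their groups narrows the spread that the test uses, and the vehicle and oxamate groups then hold 2 libraries each.

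In the same fit without library 4, 3 genes were called as higher with both compounds than with oxamate, where 6.38% of all tested genes were. Bub1b had a log2 fold change of 0.39 (adjusted p = 8.62e-05), Aurka 0.32 (adjusted p = 0.000299) and Ttk 0.18 (adjusted p = 0.0411, edgeR). Incenp was called as higher with both compounds than with vehicle (0.18, adjusted p = 0.0178, edgeR), 1 of 10 where 11.4% of all tested genes were called as higher. In the test of any difference 4 genes were called (Aurka, Bub1b, Bub3 and Incenp), against 29.7% of all tested genes. Library 4 is 1 of 3 oxamate libraries, so these calls rest on libraries 5 and 6 alone for the oxamate group, and the labels give no reason to leave it out.

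The markers of germ cell stages did not all differ in the same way between the oxamate libraries. The sum of 12 spermatocyte markers was 39522, 38732 and 36338 normalized counts with vehicle, 39757, 34161 and 34207 with oxamate and 40419, 41495 and 40620 with both compounds, so that the sum was high in library 4 and low in libraries 5 and 6. It was held mostly by cyclin A1 (Ccna1) and the centrosomal kinase Nek2, which serve the meiotic divisions. Within the oxamate group, library 4 was the highest in 5 of the 12 markers (Ccna1, Nek2, Ovol2, Piwil1 and Spo11), the lowest in 6 (Sycp1, Sycp2, Sycp3, Hormad1, Meiob and Tex101) and between the others in Dmc1. Ccna1 had 14810 in library 4 and 11753 and 11437 in libraries 5 and 6. Sycp1, Sycp2 and Sycp3 build the synaptonemal complex of prophase. Sycp1 had 2100 in library 4 and 2439 and 2539 in libraries 5 and 6.

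The sum of 8 dividing cell markers was 17820 in library 4 and 18063 and 18263 in libraries 5 and 6, between 16829 and 19318 with vehicle and between 20851 and 21531 with both compounds. Library 4 was the lowest of the oxamate group in 5 of these 8 and the highest in Birc5, Cdca8 and Ube2c. With both compounds 3 of the 8 were called as higher than with oxamate (3.18% of all tested genes) and 2 as higher than with vehicle (7.48%). Oxamate against vehicle gave 0 calls. The 12 round spermatid markers summed to 103178 to 107482 with vehicle, 98449 to 99797 with oxamate and 93273 to 94414 with both compounds. Of these 12, 8 were called as lower with both compounds than with vehicle (10.6% of all tested genes) and 2, Acr and Acrv1, as higher (7.48%). Oxamate against vehicle gave 4 lower (1.22%) and 0 higher, and both compounds against oxamate gave 5 lower (8.06%) and 0 higher. The protamine gene Prm1 had 4583 to 5203 normalized counts with vehicle and 2868 to 2976 with both compounds, and the acrosomal gene Acrv1 had 8497 to 9442 and 10355 to 11429. Within the oxamate group, library 4 was the highest in 4 of the 12, the lowest in 7 and between the others in 1. Whether a changed share of cells carried the differences in Aurka, Bub1b, Bub3 or Ttk was not tested, and in bulk RNA fewer cells of a type and less RNA in each cell cannot be told apart.

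**Figure D4:**
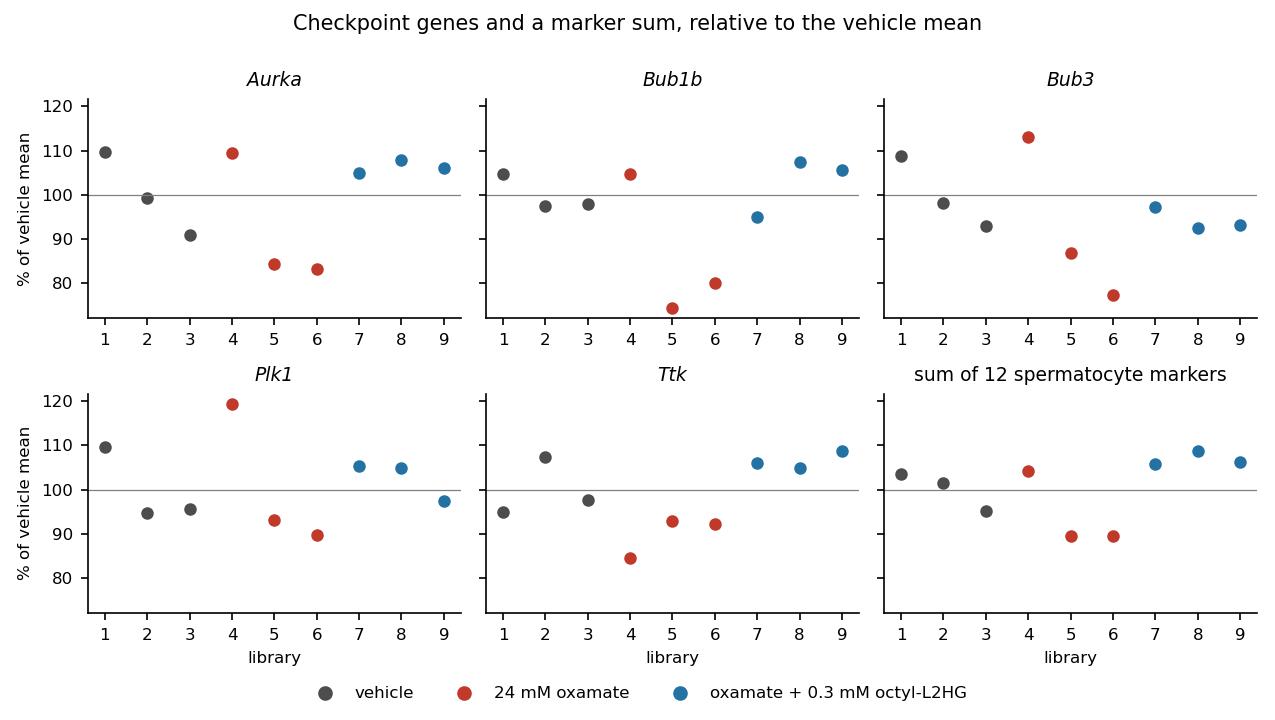
The plot shows 5 of the genes and the sum of 12 spermatocyte markers in libraries 1 to 9, as a percentage of the vehicle mean (vertical axes, which do not start at 0). Library 4 lies above 100% and libraries 5 and 6 lie below it for Aurka, Bub1b, Bub3, Plk1 and the marker sum, whereas Ttk is lowest in library 4.

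The wider pathway was followed in 64 genes in 7 lists, all of which were tested. Against vehicle, oxamate gave 5 calls among them, 1 higher (3.97% of all tested genes) and 4 lower (1.22%), with a median log2 fold change of -0.08 against -0.01 over all tested genes. These 5 calls became 0 without vehicle library 2, and 0 when only the compared groups were fitted. Both compounds against oxamate gave 6 higher (3.18% of all tested genes) and 2 lower (8.06%), with a median of 0.06 against -0.04. Both compounds against vehicle gave 4 higher (7.48%) and 5 lower (10.6%), with a median of 0.0038 against -0.05. In the test of any difference 16 of 64 were called, where 19.8% of all tested genes were.

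Without oxamate library 4, oxamate against vehicle gave 2 higher (6.42% of all tested genes) and 13 lower (2.86%) of the 64. Both compounds against oxamate gave 10 higher (6.38%) and 3 lower (11.5%), with a median of 0.11, and both compounds against vehicle gave 9 higher (11.4%) and 8 lower (13.7%). For any difference 27 of 64 were called, against 29.7% of all tested genes. The genes named below are those with the smallest p for any difference in each list, with means ± SD of 3 libraries.

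Of 8 further checkpoint genes, 2 were called in the test of any difference, which called 19.8% of all tested genes. Tpr, the nuclear pore protein that anchors Mad1l1 in interphase, had 1519 ± 199 (SD, n = 3) normalized counts under vehicle, 1501 ± 125 under oxamate and 1988 ± 148 under both compounds. It was higher with both compounds than with oxamate by a log2 fold change of 0.38 (adjusted p = 0.00796, edgeR), a call lost without library 7 or 8, and than with vehicle by 0.37 (adjusted p = 0.00568). Zw10, of the complex that brings dynein and Mad1l1 to kinetochores, was higher with oxamate than with vehicle (1508 ± 80.0 against 1273 ± 43.8, log2 fold change 0.25, adjusted p = 0.0472, edgeR), a call kept in 2 of the 9 fits that left out 1 library.

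Of 7 genes for other passenger proteins and guardians of cohesion, Cdca8 and Sgo2a were called in that test (2 of 7, against 19.8%). Cdca8, Borealin, which binds Incenp in the passenger complex, had 861 ± 83.5 under vehicle, 696 ± 108 under oxamate and 962 ± 30.3 under both compounds. Between the last groups the log2 fold change was 0.44 (adjusted p = 0.00581, edgeR). Without library 4 Cdca8 was also called as lower with oxamate than with vehicle (-0.44, adjusted p = 0.000233, edgeR). With all 9 libraries this difference was -0.30 and not called (adjusted p = 0.0854, edgeR). Sgo2a, the shugoshin that protects centromeric cohesin in meiosis, was lower with oxamate than with vehicle (696 ± 44.7 against 903 ± 129, log2 fold change -0.37, adjusted p = 0.0177, edgeR), a call lost without vehicle library 2 or oxamate library 5. With both compounds it had 862 ± 18.6, a log2 fold change of 0.28 from oxamate (adjusted p = 0.0501).

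Of 12 partners and relatives of the Aurora and Polo kinases, Nek2 and Plk4 were called in the test of any difference (2 of 12, against 19.8%). Nek2, which parts the centrosomes and phosphorylates Ndc80, had 10116 ± 469 under vehicle, 9212 ± 1513 under oxamate and 13039 ± 99.8 under both compounds. It was higher with both compounds than with oxamate by 0.47 (adjusted p = 0.00091, edgeR) and than with vehicle by 0.34 (adjusted p = 0.00635) on the log2 scale. Without library 4 it was also called as lower with oxamate than with vehicle (-0.28, adjusted p = 0.00116, edgeR). With all 9 libraries this difference was -0.13 and not called (adjusted p = 0.477, edgeR). Plk4, the kinase of centriole duplication, was higher with both compounds than with oxamate (5627 ± 69.3 against 4731 ± 383, log2 fold change 0.22, adjusted p = 0.0304, edgeR), a call lost without any 1 of libraries 5, 7, 8 and 9. Of the 64 pathway genes, 5 are also in the marker lists above: Birc5, Ccna1, Ccna2, Cdca8 and Nek2.

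Of 10 genes of the kinetochore's microtubule-binding network, 2 were lower with oxamate than with vehicle (1.22% of all tested genes) and 1 was higher with both compounds than with oxamate (3.18%). Spc25 and Ndc80, of the complex that grips microtubules, had log2 fold changes for oxamate of -0.34 (adjusted p = 0.0106, edgeR) and -0.36 (adjusted p = 0.0465). Spc25 went from 1167 ± 102 to 918 ± 18.8 and Ndc80 from 339 ± 41.2 to 264 ± 16.3. Zwint, a partner of the kinetochore scaffold, had 376 ± 44.3 with oxamate and 499 ± 28.7 with both compounds (log2 fold change 0.38, adjusted p = 0.0107, edgeR). The call of Spc25 was lost without vehicle library 2, and that of Ndc80 was kept only without vehicle library 3 among the 9 fits that left out 1 library. The call of Zwint was lost without any 1 of libraries 5, 6, 7 and 8. Without library 4 Zwint was also called as lower with oxamate than with vehicle (-0.35, adjusted p = 0.00806, edgeR). With all 9 libraries this difference was -0.24 and not called (adjusted p = 0.159, edgeR).

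Of 15 subunits of the anaphase-promoting complex, the target of the checkpoint, 5 were called in the test of any difference (19.8% of all tested genes). Cdc26 was lower with both compounds (414 ± 1.6 normalized counts) than with vehicle (580 ± 15.6), a log2 fold change of -0.51 (adjusted p = 0.000228, edgeR), and lower than with oxamate by a log2 fold change of -0.32 (adjusted p = 0.0215). The latter call was lost without any 1 of libraries 5, 7, 8 and 9. Anapc16 was also lower with both compounds than with vehicle (log2 fold change -0.47, adjusted p = 0.00172, edgeR), and Anapc10 was lower than with oxamate (-0.35, adjusted p = 0.0104), a call lost without library 5 or 9. Without library 4, Anapc10 was called as higher with oxamate than with vehicle (0.25, adjusted p = 0.0194, edgeR) and Cdc26 as lower (-0.27, adjusted p = 0.0284). With all 9 libraries neither was called, at 0.17 for Anapc10 (adjusted p = 0.305, edgeR) and -0.19 for Cdc26 (adjusted p = 0.239). Of 7 genes for cyclins, securin, separase and the cyclin-dependent kinase they act with, 1 was called as lower with oxamate than with vehicle (1.22% of all tested genes) and 2, Cdk1 and Ccnb1, as lower with both compounds than with vehicle (10.6%). Cdk1 was lower than with vehicle both with oxamate (log2 fold change -0.43, adjusted p = 0.0273, edgeR) and with both compounds (-0.41, adjusted p = 0.0151). Of the 9 fits that left out 1 library, 4 kept the first call and 6 the second. Of 5 genes for B56 subunits of protein phosphatase 2A, which Bub1b recruits, 1 was called as higher with both compounds than with oxamate (3.18% of all tested genes). This gene was Ppp2r5e (8368 ± 147 against 6847 ± 692, log2 fold change 0.26, adjusted p = 0.0174, edgeR), a call lost without any 1 of libraries 7, 8 and 9.

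The genes whose normalized counts followed Ttk most closely over the 9 libraries, among 10714 genes with a mean of at least 100, were Adam3 (Pearson r = 0.986), 4930429F24Rik (0.985), Ttc39d (0.983), Mxi1 (0.979) and Bcap29 (0.979). The points share the libraries and their scaling, so these values describe likeness only. Adam3, a sperm surface protein needed for passage to the egg, had 59354 to 65541 normalized counts with oxamate, 68809 to 75330 with vehicle and 75451 to 77921 with both compounds, with the oxamate libraries below the other 6, as in Ttk.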

How the data were processed

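RNA of sorted round spermatids was sequenced in 9 libraries from polyA-selected, stranded preparations. Per the labels, the authors' processing used cutadapt 2.10, TopHat2 2.1.1, HTSeq 2.01 and DESeq2 1.36.0. They deposited the counts of reads for each gene and a normalized signal, which equals the counts divided by 1 size factor for each library (0.867 to 1.13). Their annotation was taken to be of GRCm39, because the builds listed in the labels also include 1 that is not of mouse. Tests on the counts used edgeR 4.0.16 (R 4.3.3) and TMM scaling, all 9 libraries in 1 robust quasi-likelihood fit, the group as the only term and Benjamini-Hochberg adjustment over 25128 genes at a threshold of 0.05. Standard errors were derived from the fold change and the test statistic. Levels are the deposited normalized counts. Transcript lengths came from GENCODE vM21, found for 99.6% of tested genes, and promoters from RefSeq on GRCm38.p6. The columns of values were all used (0 left out). The fit was also run on simulated data in which no library stood apart from its group. That run cannot speak to calls that depend on library 1 or 4.

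Groups and library numbers are those of the labels. The members, the pathway and marker lists and the tests were chosen with earlier results of these data known. The genes named are the 10 members, Aurkb, at most 3 called genes of each pathway list by the smallest p for any difference, and the 5 genes with the highest Pearson r to the member with the smallest such p. Ccnb1 and the germ cell stage and dividing cell markers were named after their values were seen. Alternatives were DESeq2 1.42.0 as the test, other scalings, filters and thresholds, offsets for transcript length, fits of the compared groups alone, and each library left out. The other length used for levels, the list counts without library 4, and the fit without libraries 1 and 4, were chosen after seeing the data.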

Additional observations from a re-analysis of the deposited data

How the results depend on the processing

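Leaving out 1 library moved the number of the 10 genes called by edgeR from 0 to between 0 and 3 for oxamate against vehicle, from 1 to between 0 and 3 for both compounds against oxamate, and from 0 to between 0 and 1 for both compounds against vehicle and between 0 and 4 for any difference. In each case the highest count was that without oxamate library 4. For the 64 pathway genes these ranges were 0 to 15 (from 5), 3 to 13 (from 8), 4 to 17 (from 9) and 8 to 27 (from 16), and the highest was again without library 4.

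At an unadjusted p under 0.05 the counts of the 10 genes were 2, 2, 1 and 1 in the same order, and of the pathway genes 11, 19 and 17 in the first 3 comparisons. At an adjusted p under 0.01 they were 0 for both compounds against oxamate among the 10 genes, and 0, 3, 5 and 5 among the pathway genes. The share of all tested genes at this threshold is not given here, so these counts cannot be set against it. With total counts as the scaling, both compounds against oxamate gave 0 of the 10 genes. Without a filter on low counts it gave 3, where 1429 of all 37089 genes were called as higher and 1797 as lower. In that fit both compounds against vehicle gave 1 (Incenp), where 2690 were called as higher and 2421 as lower, and any difference gave 3. DESeq2's test, its size factors, filterByExpr and length offsets gave 1 gene for any difference. The share of all genes called for any difference under these settings is not given here. Fits of only the compared groups gave 1 of the 10 genes for both compounds against vehicle, and 0 and 14 of the pathway genes for oxamate and for both compounds against vehicle. For oxamate 590 of all 23891 genes were called as higher and 155 as lower. For both compounds these were 2850 and 3032 of 23574.

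With vehicle library 1 and oxamate library 4 both left out, a fit added after seeing the data, 3, 6, 2 and 6 of the 10 genes and 14, 21, 22 and 29 of the pathway genes were called. Between both compounds and oxamate it reversed Bub1 (-0.00018), Aurkc (0.049) and Plk1 (0.146, adjusted p = 0.0203, edgeR), and for oxamate against vehicle Plk1 (-0.059).

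Of 480 further refits of the log2 fold changes of single genes, 431 kept direction and side of the threshold, 33 reversed, 10 gained a call and 6, all of Ttk between both compounds and oxamate, lost it. All reversals among these were of values that were not called. Between both compounds and oxamate these were Plk1 (0.026 with DESeq2's test or size factors, 0.043 without a filter, 0.019 with filterByExpr, 0.029 with length offsets, 0.024 with the compared groups alone, and between -0.083 and 0.146 without 1 library), Bub3 (-0.042 with total counts, between -0.116 and 0.178 without 1 library), Aurkc (0.018 without a filter, 0.040 with length offsets, between -0.078 and 0.049 without 1 library), Mad1l1 (between -0.014 and 0.115) and Bub1 (between -0.00054 and 0.077). Between both compounds and vehicle they were Bub1b (-0.045 with total counts, -0.041 with length offsets, between -0.013 and 0.074 without 1 library), Plk1 (-0.049 with total counts, between -0.018 and 0.087) and Mad2l1 (between -0.229 and 0.081). For oxamate against vehicle they were Plk1 (-0.0048 with total counts, between -0.131 and 0.098 without 1 library) and Bub3 (between -0.283 and 0.010). The cause was not tested.

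With the median length of protein-coding transcripts, a choice made after seeing the data, the vehicle level per kb moved to 11.3 for Mad2l1, 825 for Bub3, 837 for Aurkc, 7144 for Plk1 and 6896 for Incenp, and by less than 1 SD for the other 5. No paired analysis was run. The library numbers run on from group to group and do not show whether libraries of different groups shared a preparation. Libraries 1 and 4 were both the highest of their group in Mad1l1, Bub1b, Bub3, Aurka, Aurkc and Plk1. Both were the lowest in Mad2l1, Bub1 and Ttk. Library 7 held the same place in Mad1l1, Bub3, Aurkc, Plk1 and Bub1, but not in Bub1b, Aurka, Mad2l1 or Ttk. Whether these libraries shared a preparation was not tested. Depth limits Mad2l1 most, at 35 to 69 reads in a library.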
